A study of Mus musculus with 21 samples.

Results

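The left ventricles compared here came from male mice that had carried a transverse aortic constriction (TAC) or a sham operation for 8 weeks and had received semaglutide (Sema) by intraperitoneal injection for the last 4 of those weeks. The comparison is TAC 8W + Sema 4W against Sham + Sema 4W, so that both sides carry the drug and only the operation differs, and it asks which part of the response to pressure overload was measurable under the drug. Its members are 6 RNA-seq libraries (n = 3 per group) of the 21 in the study, chosen by group. The mice were wild type C57BL/6J, 8 weeks old before 1 week of acclimatisation, and the labels carry no transgene. The dose is uncertain: the design text of the series has 60 mg/kg per day, and the methods have 60 µg/kg per day. TAC 8W and Sham mice, used further down as a second comparison, had TAC or sham surgery with vehicle and no Sema. The labels name cardiomyocytes as the cell type, whereas the methods describe cardiac tissue, and the libraries held transcripts of fibroblasts, endothelial cells, macrophages and erythroid cells beside those of cardiomyocytes. No source states that each library is a separate mouse, so the p-values measure the spread between these samples, which may be partly technical. The count columns of both groups carry the letter M, which no source explains, and they were matched to the 4-week groups by that shared letter.

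TAC narrows the aorta, so the left ventricle ejects against a raised pressure and its walls are stretched. Stretched cardiomyocytes re-express genes of the fetal heart, such as the natriuretic peptides and skeletal alpha-actin, and thicken the Z-discs and costameres that carry force, while fibroblasts lay down collagen and matrix proteins. YAP with its TEAD partners, calcineurin and TGF-beta are among the pathways that link strain to transcription. Sema is an agonist of the glucagon-like peptide 1 receptor, used against diabetes and obesity.

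One of the 6 libraries, TAC 8W + Sema 4W replicate 3, stood apart from the other 5. Replicates 1 and 2 of that group were the closest of all 210 pairs of libraries in the study, with a chi-square of 7.11 per gene and a correlation of r = 0.987 across genes, still above counting noise. Replicate 3 lay at a chi-square of 162 from replicate 1 and 156 from replicate 2, and at r = 0.903 from both. The first principal component of the 6 libraries held 51.9% of the variance and had replicate 3 at 88.8 and replicates 1 and 2 at -4.24 and -4.45. Sham + Sema 4W replicate 3 lay at the other end of that component, at -59.9, where replicates 1 and 2 of its group were at -18.2 and -2.01. In replicate 3 long transcripts were high against the other libraries and GC-rich ones low: its Spearman rho of expression deviation over genes was 0.460 with exonic length and -0.420 with GC content. The corresponding rho with length was -0.173 and -0.167 in replicates 1 and 2. The mitochondrial genome gave 43.8% of the counts of replicate 3 and 47.6 to 54.9% of those of the other 5. Total counts of the 6 libraries ranged from 9502879 to 15190608. The total counts and many of the list values below are therefore also given without replicate 3. The part of the composition of replicate 3 in any result was not tested.

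**Figure D1:**
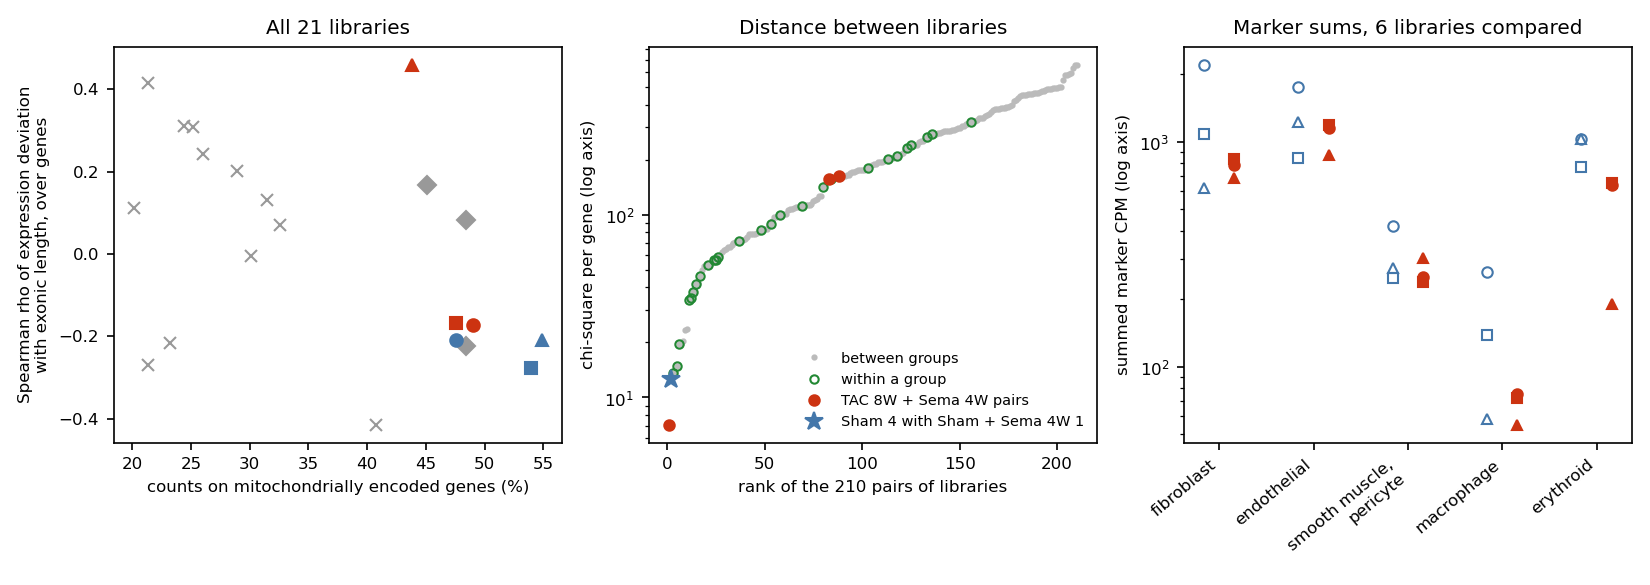
Left, counts on mitochondrially encoded genes (x axis, percent) against the Spearman rho of expression deviation with exonic length (y axis) for all 21 libraries. Middle, chi-square per gene (log axis) of the 210 pairs of libraries by rank, with pairs within a group marked. Right, summed CPM (log axis) of cell type markers in the 6 libraries. TAC 8W + Sema 4W replicate 3 had the highest rho with length, 0.460, while replicates 1 and 2 form the closest pair, at 7.11.

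With all 6 libraries, 223 genes were higher and 94 lower after TAC under Sema among 12626 tested (edgeR quasi-likelihood test, Benjamini-Hochberg adjusted p under 0.05), a background of 1.77% and 0.744% of genes. In 286 of the 317 calls no TAC library overlapped a sham library, and over all genes such separation was seen in 21.1%, in either direction. Higher genes made up 70.3% of the calls, and 55.8% with upper quartile scaling, which gave 169 higher and 134 lower. The libraries mattered more than the scaling. Without TAC 8W + Sema 4W replicate 3, 225 genes were higher and 54 lower of 12817 (1.76% and 0.421%), and 168 calls were shared with the full comparison. Without Sham + Sema 4W replicate 1 only 56 were higher and 17 lower of 12820 (0.437% and 0.133%). Without Sham + Sema 4W replicate 3 the total was 142. In a fit of the 6 libraries alone, with no other group to share the estimate of spread, 6 genes were higher (Ell2, Synpo2l, Fkbp5, Hbegf, Ankrd1 and Fgl2) and 0 lower by edgeR, with 879 higher and 635 lower at an unadjusted p under 0.05. The calls that held in all 6 fits that leave out 1 library numbered 47, of which 35 were higher and 12 lower, and the account below says which genes belong to them. Leaving out TAC 8W + Sema 4W replicate 1 or 2 keeps the other of that close pair. Holding in all 6 fits therefore does not show that replicate 3 shared the change. Over all genes, 1912 of 12626 were higher and 1013 lower at an unadjusted p under 0.05 with edgeR. DESeq2 called 708 higher and 345 lower of 12617. List counts by either measure below have these as their background.

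Among the higher calls, replicate 3 of TAC 8W + Sema 4W lay inside the sham range in 28, outside it but short of both other TAC libraries in 83, and beyond both of them in 99. In 2 higher calls replicate 1 or 2 lay inside the sham range. Among the lower calls the corresponding counts for replicate 3 were 0, 24 and 55. The response under Sema thus contained genes that all 3 TAC libraries shared, genes carried by replicates 1 and 2, and genes highest in replicate 3.

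Part of the stretch and fetal programme of the cardiomyocyte was higher after TAC under Sema, while Nppa, Myh7 and Myh6 did not pass the test. The list of natriuretic and fetal genes also holds stretch-response genes such as Ankrd1, Xirp2 and Fhl1. Of its 14 tested genes 9 rose and 0 fell, with a median log2 fold change of 2.37 (2.77 without replicate 3), where the median of all genes was 0.08 (-0.01 without it). Ankrd1, an ankyrin repeat protein that binds titin in the sarcomere and moves to the nucleus under stretch, had the smallest p of the list. It measured 2402, 2339 and 1894 CPM (counts scaled to the library total and by TMM) in TAC 8W + Sema 4W replicates 1 to 3 and 265, 391 and 296 CPM in the shams. Every TAC library lay far above every sham, and the gene rose by 2.80 on the log2 scale (SE 0.33, edgeR adjusted p = 0.000356). Acta1, the skeletal alpha-actin of the fetal heart, measured 8048, 8265 and 4503 CPM after TAC against 561, 326 and 985 CPM. It rose by 3.47 on the log2 scale (SE 0.50, edgeR adjusted p = 0.00149). Replicate 3 was the lowest TAC library and still above all shams.

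Fhl1, a LIM protein of the titin-based stretch sensor, measured 160.2, 161 and 109.5 CPM after TAC and 11.9, 15.8 and 2.22 CPM in the shams. It rose by 3.82 on the log2 scale (SE 0.63, edgeR adjusted p = 0.00317). Ccn2, the matricellular connective tissue growth factor, measured 94.2, 83.4 and 44.4 CPM against 13.9, 11.3 and 5.74 CPM and rose by 2.82 (SE 0.44, edgeR adjusted p = 0.00231). These 4 genes and Ankrd2 kept their calls in all 6 fits without 1 library, although Ankrd2 was at sham level in replicate 3. Xirp2 and Xirp1, actin-binding Xin proteins of the intercalated disc, and Rcan1, the calcineurin-induced inhibitor of calcineurin, rose as well. Rcan1 measured 146, 142 and 62.7 CPM against 7.43, 24.5 and 3.71 CPM, a rise of 3.27 on the log2 scale (SE 0.65, edgeR adjusted p = 0.0119). Xirp2 measured 3419, 3440.4 and 1547 CPM against 272, 396 and 862 CPM, with 2.46 (SE 0.61, edgeR adjusted p = 0.038), and Xirp1 had 1.94 (SE 0.37, edgeR adjusted p = 0.0104). Without Sham + Sema 4W replicate 1 the calls of Xirp1 (edgeR adjusted p = 0.0609) and Rcan1 (0.0686) were lost, and that of Xirp2 was lost without any of Sham + Sema 4W replicates 1 and 2 and TAC 8W + Sema 4W replicates 1 and 2, with adjusted p up to 0.130.

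The natriuretic peptides themselves were split between the TAC libraries. Nppb, the B-type peptide, measured 3568, 3665 and 574 CPM after TAC and 274, 607 and 719 CPM in the shams, so replicate 3 lay within the sham range. Its log2 fold change was 2.29 (SE 0.59, edgeR adjusted p = 0.0427), 2.78 without replicate 3 (adjusted p = 0.00251), and the call was lost without any other 1 of the 6 libraries (adjusted p up to 0.143). Nppa, the atrial peptide, measured 2758, 2707 and 305 CPM against 505, 188 and 614 CPM and did not pass the test (2.14, SE 0.79, edgeR adjusted p = 0.127, and 0.0594 without replicate 3). Myh7, the slow myosin heavy chain of the fetal ventricle, was level: 789, 740.3 and 530.2 CPM after TAC and 797, 469 and 560.4 CPM in the shams, at 0.17 on the log2 scale (SE 0.48, edgeR adjusted p = 0.852). Myh6, the fast adult myosin heavy chain, measured 15673, 16046 and 20465 CPM against 17444, 15864 and 27777 CPM, also overlapping (-0.23, SE 0.33, edgeR adjusted p = 0.702).

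The promoters of Ankrd1 and Acta1 are shown because both genes were called in every fit without 1 library and their windows hold the 6 letters that TEAD factors bind, GGAATG or its reverse complement CATTCC. The sequences are from RefSeq on GRCm38.p6, read on the strand of the gene, 5′ to 3′, with those letters in capitals. The stretch for Ankrd1 is chr19:36119911-36119974 (minus strand), whose capitals begin 123 bases before the transcript start used here. It holds the first 64 of the 130 bases before that start and stops ahead of other annotated starts of the gene. That for Acta1 is chr8:123894776-123894905 (minus strand), all 130 bases, whose capitals begin 46 bases before its transcript start, with the TATA letters near the end of the stretch.
Ankrd1: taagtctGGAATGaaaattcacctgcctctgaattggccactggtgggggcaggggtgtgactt
Acta1: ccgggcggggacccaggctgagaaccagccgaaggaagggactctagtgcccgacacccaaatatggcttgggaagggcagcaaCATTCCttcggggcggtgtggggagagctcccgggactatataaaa
In the 130 bases before the start, GGAATG on either strand occurred in 7.5% of all 27025 genes with a promoter. Among the 9885 tested genes with a promoter it occurred in 6.28%. A gene counted if any of its listed promoters held the letters. Of the higher genes 187 had a promoter in the table and 17 of those held the letters (9.09%), against 1 of 69 lower genes (1.45%). A match describes the letters and is no evidence of a bound factor.

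Z-disc and costamere genes, which anchor actin filaments and transmit force to the membrane, rose in 6 of 18 cases and fell in 0, with a median log2 fold change of 0.78 (7 rose without replicate 3, median 1.13). Flnc, the muscle filamin that cross-links actin, measured 1631, 1614 and 519.8 CPM after TAC and 192, 211 and 158 CPM in the shams. It rose by 2.74 on the log2 scale (SE 0.35, edgeR adjusted p = 0.000623), and by 3.13 without replicate 3. Synpo2l, a Z-disc protein, was the most even between TAC libraries, at 100.1, 104 and 102 CPM against 10.8, 16.9 and 6.12 CPM (3.16, SE 0.49, edgeR adjusted p = 0.00231). Both calls held in all 6 fits without 1 library. Myot (myotilin, 1.77), Pdlim5 (1.89), Nrap (1.12) and Xirp2 were the other 4. The call of Myot held only without TAC 8W + Sema 4W replicate 3 (adjusted p up to 0.139 otherwise). That of Nrap was lost without Sham + Sema 4W replicate 1 or 2 or TAC 8W + Sema 4W replicate 1 or 2 (up to 0.145), and that of Pdlim5 without Sham + Sema 4W replicate 1 or 3 or TAC 8W + Sema 4W replicate 3 (up to 0.103). Csrp3, the muscle LIM protein, measured 4982, 4959 and 1633 CPM against 1885, 1902 and 2977 CPM and did not pass the test (0.78, SE 0.37, edgeR adjusted p = 0.218).

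Other cardiomyocyte genes of the force-bearing skeleton, chosen after their values were seen, held in all 6 fits. Klhl41, a Kelch protein that stabilises thin filaments, measured 309, 284 and 90.0 CPM against 36.3, 64.1 and 33.2 CPM (2.35, SE 0.36, edgeR adjusted p = 0.00231). Enah, an actin filament elongation factor, measured 97.8, 100.3 and 64.1 CPM against 12.1, 19.3 and 29.5 CPM (2.12, SE 0.36, edgeR adjusted p = 0.00411). Of 13 adult sarcomere genes 0 passed the test with edgeR, 2 were higher at an unadjusted p under 0.05, and DESeq2 called 1 higher. At that unadjusted p 1912 of all 12626 genes were higher. The median of the sarcomere genes was -0.20, or -0.03 without replicate 3.

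Targets of YAP and TEAD rose in 4 of 16 cases (Ankrd1, Ccn2, Ccn1 and Tgfb2) and fell in 0, with a median log2 fold change of 0.87 (0.50 without replicate 3). Ccn1, a matricellular partner of integrins, measured 155, 162 and 69.1 CPM after TAC and 54.9, 45.1 and 23.7 CPM in the shams and rose by 1.64 on the log2 scale (SE 0.33, edgeR adjusted p = 0.0135). The call was lost without Sham + Sema 4W replicate 3 (adjusted p = 0.0567). Tgfb2, a TGF-beta ligand, measured 5.66, 7.73 and 4.16 CPM against 1.61, 0.843 and 0.371 CPM (2.53, SE 0.59, edgeR adjusted p = 0.028). Its call was lost without TAC 8W + Sema 4W replicate 2 or any 1 of the 3 shams (adjusted p up to 0.0870). Of 26 TGF-beta ligands, receptors and regulators, Tgfb2, Gdf15 and Fstl3 rose and 0 fell. Fstl3, a secreted binder of activins, had 2.81 (SE 0.57, edgeR adjusted p = 0.0135), a call lost without Sham + Sema 4W replicate 1 or 3 (up to 0.0624).

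Signalling genes with the same pattern included Hbegf. Hbegf, a ligand of the EGF receptor, measured 20.8, 20.7 and 15.6 CPM against 0.537, 0.948 and 1.67 CPM (4.27, SE 0.55, edgeR adjusted p = 0.000623). The TAC and sham libraries were far apart, and the call held in all 6 fits. So did those of Tgm2, a transglutaminase, Bcl2l1, which restrains apoptosis, and Tlr4, the receptor of endotoxin, all 3 chosen after their values were seen. Tgm2 measured 232, 237 and 191 CPM against 55.3, 83.2 and 37.1 CPM (1.91, SE 0.33, edgeR adjusted p = 0.00486). Bcl2l1 had 1.81 (SE 0.30, edgeR adjusted p = 0.00365) and Tlr4 1.99 (SE 0.32, edgeR adjusted p = 0.00276).

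**Figure D2:**
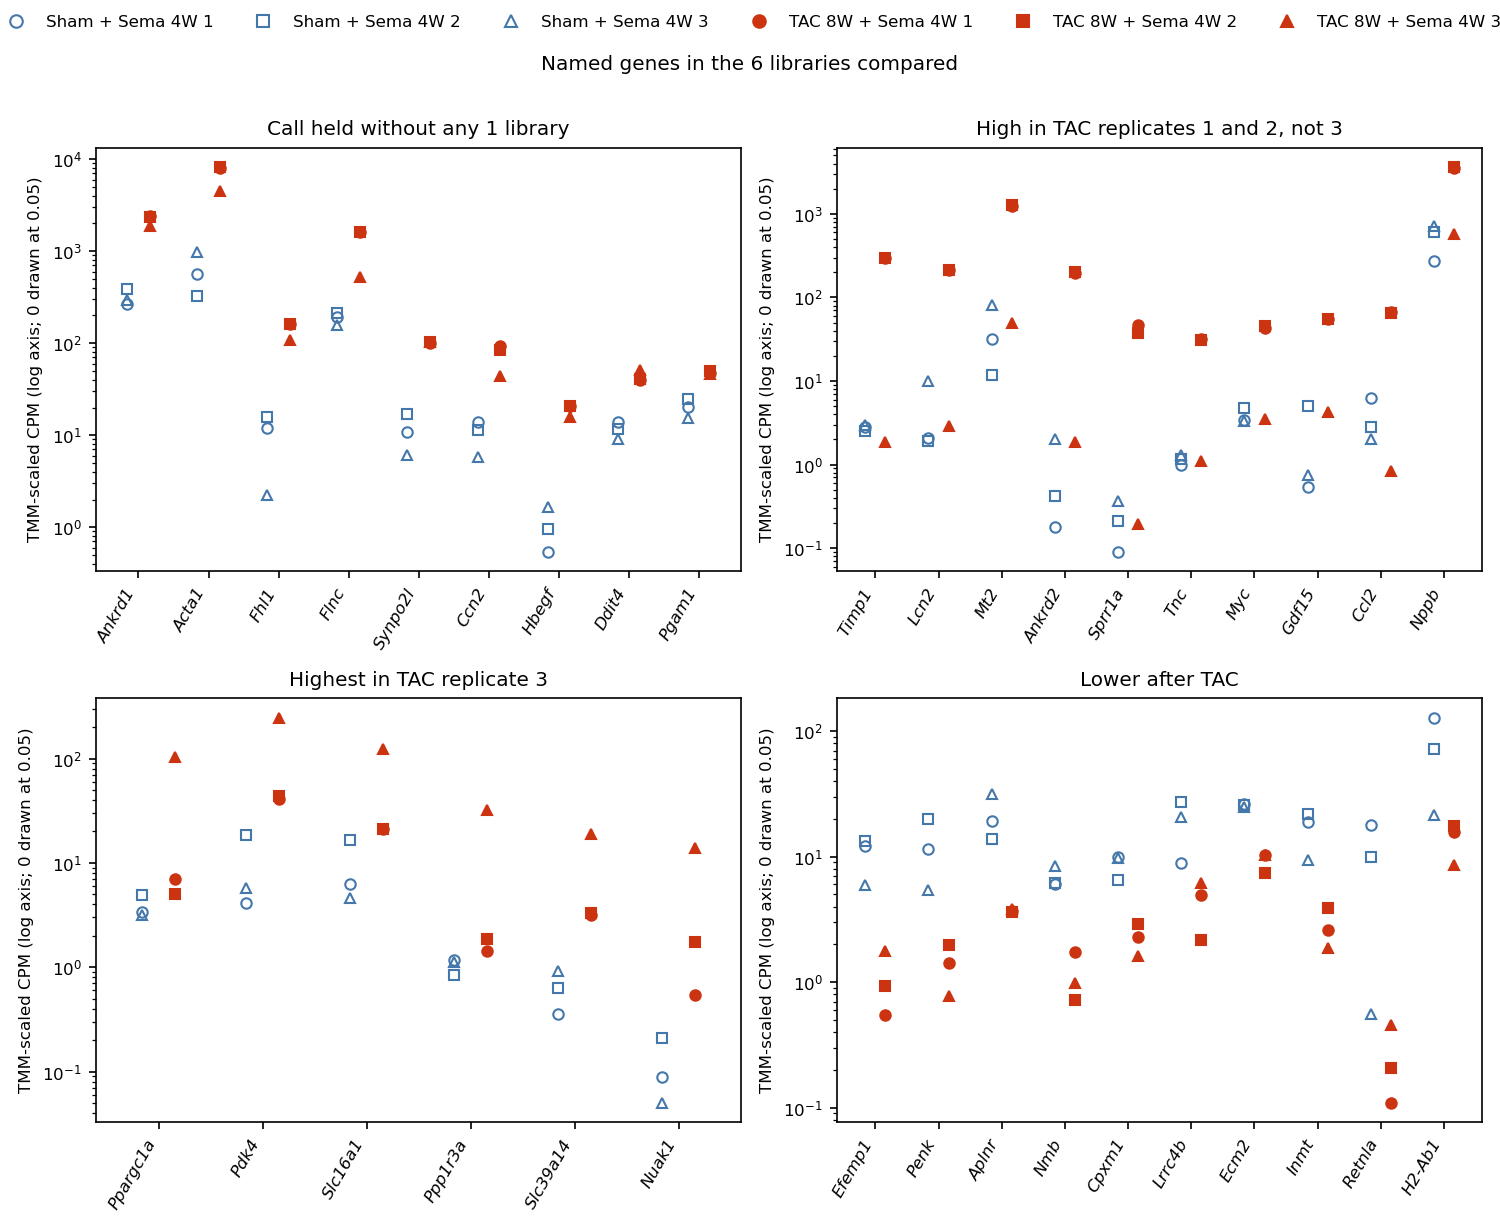
TMM-scaled CPM (y axis, log scale, with 0 drawn at 0.05) of named genes in the 3 TAC 8W + Sema 4W libraries (filled) and the 3 Sham + Sema 4W libraries (open), with 1 marker shape per replicate. Ankrd1 was above every sham in all 3 TAC libraries (1894 to 2402 against 265 to 391 CPM), Timp1 only in replicates 1 and 2 (293 and 299 CPM, with 1.88 in replicate 3), and Ppargc1a was highest in replicate 3 (103 CPM).

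A second set of genes rose by large factors in replicates 1 and 2 and was at sham level in replicate 3. It included the 3 called genes of the metallothionein and acute-phase list, Timp1, Lcn2 and Mt2. In that list 3 of 19 genes rose and 0 fell (median log2 fold change 2.27), and 9 of 19 rose without replicate 3 (median 2.50). Not every member shared the split: 5 of the 19 were above every sham in all 3 TAC libraries, as were 1395 of all 12626 genes. The median was 2.41 without replicate 1 and 2.51 without replicate 2. These medians cannot show a rise in replicate 3, since replicate 1 or 2 remained in each fit. Timp1, an inhibitor of matrix metalloproteinases, measured 293, 299 and 1.88 CPM after TAC and 2.78, 2.53 and 2.97 CPM in the shams. Its log2 fold change was 6.17 (SE 1.16, edgeR adjusted p = 0.00919), and 6.76 (adjusted p = 8.7e-06) without replicate 3. Lcn2, the siderophore-binding lipocalin, measured 214, 215 and 2.92 CPM against 2.06, 1.90 and 10.01 CPM (5.03, SE 1.01, edgeR adjusted p = 0.0131). Replicate 3 again lay among the shams. Mt2, a metal-binding metallothionein, measured 1259, 1281 and 50.03 CPM against 31.9, 11.8 and 80.1 CPM (4.40, SE 0.82, edgeR adjusted p = 0.00905), and Mt1 measured 1646, 1729 and 203 CPM against 220.1, 154 and 535 CPM, short of the test (edgeR adjusted p = 0.0541) and called without replicate 3 (2.50, edgeR adjusted p = 0.000801) or without Sham + Sema 4W replicate 3. Without Sham + Sema 4W replicate 1 the calls of Timp1 (adjusted p = 0.0553), Mt2 (0.0562) and Lcn2 (0.0721) were lost.

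The same split was seen in genes outside that list. Ankrd2, a muscle ankyrin repeat protein related to Ankrd1, measured 194, 202 and 1.88 CPM after TAC and 0.179, 0.421 and 2.04 CPM in the shams and rose by 7.49 on the log2 scale (SE 1.26, edgeR adjusted p = 0.00387). Sprr1a, a small proline-rich protein induced in stressed myocytes, measured 46.4, 37.2 and 0.195 CPM against 0.0895, 0.211 and 0.371 CPM (7.07, SE 1.57, edgeR adjusted p = 0.0221). Gm21083 measured 11.6, 6.70 and 0 CPM and was at 0 in all 3 shams. The calls of Sprr1a and Gm21083 were lost without any 1 of the 3 shams (adjusted p up to 0.0964 and 0.0873). Syt12, a synaptotagmin, differed in that replicate 3 was also above the shams: 47.2, 58.9 and 4.87 CPM against 0.806, 1.37 and 1.85 CPM (4.83, SE 0.65, edgeR adjusted p = 0.000786), called in all 6 fits. Fhad1 (7.94, 7.93 and 1.56 CPM against 0.0895, 0 and 0.371 CPM), Lman1l (11.3, 9.68 and 2.53 CPM against 0.448, 0.737 and 0.927 CPM) and Arc (6.53, 8.55 and 1.82 CPM against 0.806, 0 and 0 CPM) were similar at low levels. Fhad1 and Lman1l lost their calls without Sham + Sema 4W replicate 1 (adjusted p = 0.0646 each) and Arc without replicate 2 or 3 of that group (up to 0.0628).

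Immediate early genes, transcribed within minutes of a stimulus, rose in 2 of 24 cases, Myc and Ier5, and fell in 0 (median 0.42, and 0.82 without replicate 3). Myc, a growth-promoting transcription factor, measured 43.0, 45.1 and 3.51 CPM after TAC and 3.40, 4.74 and 3.34 CPM in the shams (2.98, SE 0.59, edgeR adjusted p = 0.0119, lost without Sham + Sema 4W replicate 1 at 0.0646). Ier5 was even, at 18.9, 18.6 and 22.6 CPM against 10.03, 6.32 and 6.67 CPM (1.38, SE 0.28, edgeR adjusted p = 0.0135, lost without Sham + Sema 4W replicate 3 at 0.0534). Of 18 genes of the integrated stress response 1 rose, Gdf15, a stress-induced cytokine, at 55.7, 55.7 and 4.29 CPM against 0.537, 4.95 and 0.741 CPM (4.16, SE 0.83, edgeR adjusted p = 0.0125). Its call was lost without Sham + Sema 4W replicate 1 or 3 (up to 0.0677). Without TAC 8W + Sema 4W replicate 3, 4 of the 18 rose, among them the transcription factor Atf4 at 398 and 373 CPM against 132, 88.5 and 165 CPM (1.602, edgeR adjusted p = 0.00356), which measured 108 CPM in replicate 3.

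Chemokines and their receptors had 1 of 25 genes higher and 0 lower (4 higher without replicate 3). Ccl2, which draws monocytes, measured 66.8, 64.9 and 0.845 CPM against 6.18, 2.84 and 2.04 CPM (3.54, SE 0.94, edgeR adjusted p = 0.0475). It was called without replicate 3 (adjusted p = 0.000603) and lost without any other 1 library (up to 0.141). Cxcl1, which draws neutrophils, measured 11.2, 10.1 and 0.26 CPM against 2.15, 0.105 and 0.371 CPM and passed only without replicate 3 (3.50, edgeR adjusted p = 0.014). Beside these genes, the summed macrophage markers were at 75.6, 72.8 and 55.2 CPM after TAC and at 262, 138 and 58.2 CPM in the shams, and 0 of the 12 rose (edgeR), also at an unadjusted p under 0.05.

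Heat shock chaperones rose in 2 of 20 cases and fell in 0, with 9 of 20 above every sham in all TAC libraries, as were 1395 of all 12626 genes, and a median log2 fold change of 0.87 (0.74 without replicate 3). Dnajb4, an Hsp40 co-chaperone, measured 73.9, 72.1 and 121 CPM after TAC and 22.5, 25.8 and 14.5 CPM in the shams, a call that held in all 6 fits (2.09, SE 0.35, edgeR adjusted p = 0.00365). Hspb7, a cardiac small heat shock protein, measured 1851, 1861 and 1354 CPM against 378, 959.7 and 431 CPM (1.52, SE 0.32, edgeR adjusted p = 0.0172, lost without Sham + Sema 4W replicate 1 or 3, up to 0.0873). Hspb1, which protects actin filaments, followed replicates 1 and 2: 2334, 2313 and 198 CPM against 399.8, 400.1 and 551 CPM, passing only without replicate 3 (2.38, edgeR adjusted p = 0.000199). Of 27 glutathione and antioxidant genes Srxn1 and Txnrd1 rose and Gsta3 fell. Srxn1, the sulfiredoxin that restores peroxiredoxins, measured 7.29, 3.81 and 4.94 CPM against 0.895, 1.05 and 0.556 CPM and was called in all 6 fits (2.62, SE 0.46, edgeR adjusted p = 0.00486). Txnrd1 (1.84, edgeR adjusted p = 0.0425) was lost without Sham + Sema 4W replicate 1 or 3 or TAC 8W + Sema 4W replicate 3 (up to 0.137).

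Targets of the glucocorticoid receptor and FoxO factors, which rise with fasting and stress hormones, rose in 6 of 20 cases and fell in 0, with a median log2 fold change of 1.85 (6 rose without replicate 3, median 1.108). Ddit4, an inhibitor of mTORC1, was even across TAC libraries at 39.8, 40.5 and 50.7 CPM against 13.97, 11.6 and 9.08 CPM and was called in all 6 fits (1.91, SE 0.36, edgeR adjusted p = 0.00905). Fkbp5, a co-chaperone of the glucocorticoid receptor, measured 13.2, 13.6 and 16.6 CPM against 1.43, 1.90 and 1.85 CPM (3.07, SE 0.61, edgeR adjusted p = 0.0122, lost without Sham + Sema 4W replicate 1 at 0.0677). In both genes the 3 TAC libraries were close together and clear of the shams. Cdkn1a, the cell cycle inhibitor p21, measured 40.3, 37.6 and 15.7 CPM against 4.39, 6.63 and 5.19 CPM (2.52, SE 0.52, edgeR adjusted p = 0.0135, lost without Sham + Sema 4W replicate 1 or 3, up to 0.0731). Gadd45g followed replicates 1 and 2, at 90.1, 101 and 8.58 CPM against 6.18, 8.11 and 14.3 CPM (2.82, SE 0.62, edgeR adjusted p = 0.0197), and was lost without Sham + Sema 4W replicate 1 or 2 or TAC 8W + Sema 4W replicate 2 (up to 0.0921).

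Another set of calls was highest in TAC 8W + Sema 4W replicate 3 and lost without it, and most of the metabolic calls belonged to it. Ppargc1a, a coactivator of mitochondrial genes, measured 7.07, 5.05 and 103 CPM after TAC and 3.40, 4.95 and 3.15 CPM in the shams. It rose by 3.32 on the log2 scale (SE 0.87, edgeR adjusted p = 0.0446), a value that became 0.66 (adjusted p = 0.684) without replicate 3. Pdk4, which restrains glucose oxidation, measured 40.6, 43.5 and 246 CPM against 4.12, 18.4 and 5.74 CPM (3.54, SE 0.87, edgeR adjusted p = 0.0372, and 0.183 without replicate 3). Slc16a1, the lactate and pyruvate carrier MCT1, measured 21.001, 21.2 and 122 CPM against 6.27, 16.5 and 4.63 CPM (2.57, SE 0.65, edgeR adjusted p = 0.0427, and 0.316 without it). Replicates 1 and 2 lay above every Sham + Sema 4W library in all 3 genes, by a smaller margin. Sham replicates 4 to 6, which had no Sema, measured 14.7, 60.1 and 50.2 CPM for Slc16a1. They measured 3.69, 7.83 and 12.8 CPM for Ppargc1a. In both genes replicates 1 and 2 lay within that untreated range. For Pdk4 the same shams measured 6.75, 34.2 and 31.4 CPM, below both replicates. Ppp1r3a, a glycogen-targeting subunit of a phosphatase, measured 1.41, 1.85 and 32.2 CPM against 1.16, 0.843 and 1.112 CPM, Slc39a14, a zinc carrier, 3.16, 3.30 and 19.0 CPM against 0.358, 0.632 and 0.927 CPM, and Nuak1, an AMPK-related kinase, 0.544, 1.75 and 13.8 CPM against 0.0895, 0.211 and 0 CPM. Without replicate 3 their adjusted p was 0.730, 0.248 and 0.290. The calls of these 6 genes were also lost, at lower adjusted p, without Sham + Sema 4W replicate 1 or 3, and those of all but Pdk4 and Slc16a1 without replicate 2 of that group.

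Glycolysis and glucose uptake genes rose in 3 of 31 cases (Pfkp, Pgam1 and Slc16a1) and fell in 0, with a median of 0.08 (-0.09 without replicate 3). Pgam1, a glycolytic mutase, was the evenest, at 47.7, 49.8 and 46.4 CPM against 20.2, 24.7 and 15.4 CPM, and was called in all 6 fits (1.25, SE 0.23, edgeR adjusted p = 0.00905). Pfkp, the platelet form of phosphofructokinase, measured 129.7, 131 and 72.2 CPM against 39.7, 48.0 and 70.8 CPM (1.07, SE 0.28, edgeR adjusted p = 0.0432, lost without Sham + Sema 4W replicate 1 or 2 or TAC 8W + Sema 4W replicate 1 or 2, up to 0.145). Of 33 genes of fatty acid uptake and oxidation 1 rose, Pdk4, and 0 fell, with a median of -0.15 that was 0.28 without Sham + Sema 4W replicate 2. Genes of the citric acid cycle (19) had 0 calls by edgeR or DESeq2 and 0 at an unadjusted p under 0.05. Genes of branched-chain amino acid breakdown (20) had 0 calls by edgeR, 1 higher by DESeq2, and 2 higher and 3 lower at an unadjusted p under 0.05.

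No subunit of the respiratory chain passed the test after TAC under Sema. Of the 60 nuclear-encoded ones 0 were called by edgeR or DESeq2, 2 were lower at an unadjusted p under 0.05, 25 were below every sham in all TAC libraries and 0 above, where 1264 of all 12626 genes were below and 1395 above. Their median log2 fold change was -0.50, or -0.24 without replicate 3. The 13 mitochondrially encoded subunits had a median of -0.57 (-0.29 without replicate 3), with 0 calls by edgeR or DESeq2, 0 at an unadjusted p under 0.05 and 1 below every sham in all TAC libraries. Of 18 calcium handling genes 0 were called by edgeR, 2 were higher by DESeq2 and 8 were higher at an unadjusted p under 0.05. Over all genes, 708 of 12617 were higher by DESeq2 and 1912 of 12626 at that unadjusted p. The median of the calcium handling genes, 0.74, was 0.05 without replicate 3. Ryr2, the calcium release channel, measured 175, 165 and 766 CPM after TAC and 108, 204 and 127 CPM in the shams (1.33, SE 0.55, edgeR adjusted p = 0.162). Atp2a2, the SERCA2 pump that refills the sarcoplasmic reticulum, measured 3189.7, 3143 and 8811 CPM against 1742, 4435 and 1404 CPM (1.00, SE 0.48, edgeR adjusted p = 0.215). In both genes replicates 1 and 2 lay within the sham range and replicate 3 above it.

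No collagen passed the test after TAC under Sema. Of 21 fibrillar and network collagens 0 rose and 0 fell with edgeR, 3 were higher and 1 lower at an unadjusted p under 0.05, and DESeq2 called 1 higher. At that unadjusted p 1912 of all 12626 genes were higher and 1013 lower. The median log2 fold change of the collagens was 0.05, or -0.02 with upper quartile scaling. Col1a1, the chief chain of scar collagen, measured 77.9, 81.7 and 44.9 CPM after TAC and 92.8, 54.2 and 50.4 CPM in the shams (0.05, SE 0.45, edgeR adjusted p = 0.957). Col3a1, its reticular partner, measured 165, 173 and 91.7 CPM against 211, 118 and 112 CPM (-0.03, SE 0.44, edgeR adjusted p = 0.967). The groups overlapped in both genes, and standard errors of this size leave room for a sizeable change either way. Of 19 collagen processing enzymes P4ha1, a prolyl hydroxylase, rose (24.3, 22.7 and 38.8 CPM against 15.8, 16.6 and 9.08 CPM, 1.04, SE 0.26, edgeR adjusted p = 0.0427), a call lost without Sham + Sema 4W replicate 1 or 3 or TAC 8W + Sema 4W replicate 3 (up to 0.185).

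Among 34 matrix glycoproteins and proteoglycans, Tnc and Vcan rose and Efemp1 fell (median -0.14). Without replicate 3, 4 rose and 1 fell (median 0.02). Tnc, the tenascin of injured tissue, measured 32.0, 30.6 and 1.10 CPM after TAC and 0.985, 1.16 and 1.30 CPM in the shams (4.21, SE 0.82, edgeR adjusted p = 0.0113, lost without Sham + Sema 4W replicate 1 at 0.0646). Vcan, the large proteoglycan versican, measured 7.94, 12.8 and 6.37 CPM against 2.51, 1.79 and 1.48 CPM (2.20, SE 0.51, edgeR adjusted p = 0.0289, lost without TAC 8W + Sema 4W replicate 2 or any 1 sham, up to 0.0870). Thbs4, a thrombospondin of stressed muscle, measured 73.6, 69.4 and 7.86 CPM against 9.58, 7.27 and 13.7 CPM and passed only without replicate 3 (2.84, edgeR adjusted p = 0.00402). Postn, the periostin of activated fibroblasts, measured 57.9, 42.6 and 37.7 CPM against 18.5, 11.2 and 14.6 CPM, apart in every library but short of the test (1.64, SE 0.84, edgeR adjusted p = 0.243). Of 20 activated fibroblast genes 0 rose with edgeR (1 with DESeq2, and 1 at an unadjusted p under 0.05) and 1 fell, Lrrc15, at 3.48, 4.33 and 13.4 CPM against 18.4, 25.2 and 30.6 CPM (-1.78, SE 0.46, edgeR adjusted p = 0.045, lost without any 1 library but TAC 8W + Sema 4W replicate 3, up to 0.121). Without replicate 3, 1 of these fibroblast genes rose and 1 fell with edgeR.

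**Figure D3:**
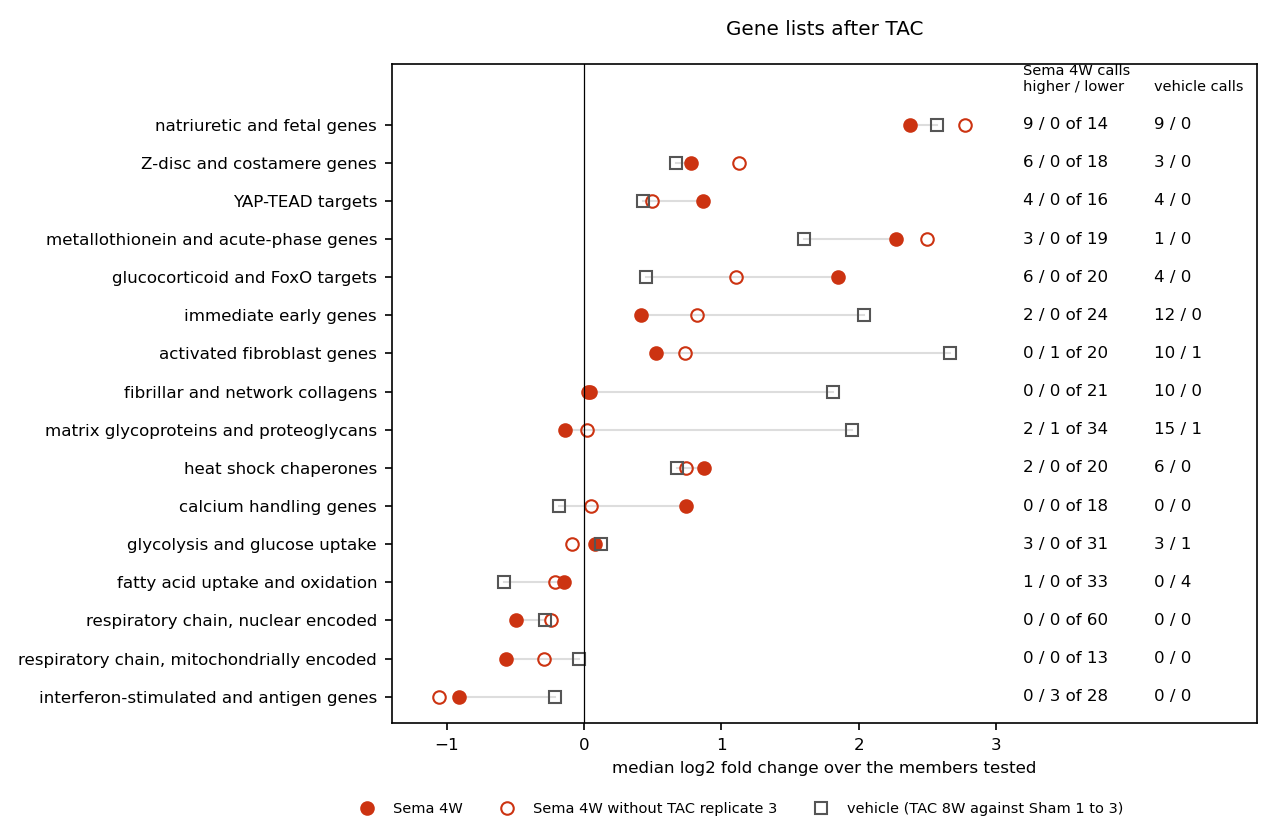
Median log2 fold change (x axis) of each gene list (y axis), for TAC under Sema 4W with all libraries (filled red), without TAC 8W + Sema 4W replicate 3 (open red) and for TAC with vehicle; counts beside each list are genes called higher and lower. Natriuretic and fetal genes, a list that also holds stretch-response genes, had medians of 2.37 under Sema and 2.57 with vehicle, while collagens had 0.05 and 1.81.

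Genes that fell after TAC under Sema were fewer, and 12 of the 94 held in all 6 fits. Efemp1, the matrix protein fibulin-3, measured 0.544, 0.927 and 1.75 CPM after TAC and 12.1, 13.4 and 5.93 CPM in the shams, at -3.23 on the log2 scale (SE 0.59, edgeR adjusted p = 0.00768). Penk, the enkephalin precursor, measured 1.41, 1.96 and 0.78 CPM against 11.5, 20.1 and 5.37 CPM (-3.19, SE 0.63, edgeR adjusted p = 0.0119). Aplnr, the receptor of apelin, found in endothelium, measured 3.70, 3.61 and 3.83 CPM against 19.1, 13.7 and 31.3 CPM (-2.51, SE 0.49, edgeR adjusted p = 0.0115). In these 3 genes no library of either group overlapped the other. Nmb, the neuropeptide neuromedin B (-2.58, SE 0.53, edgeR adjusted p = 0.0135), Lrrc4b, a synaptic adhesion protein (-2.09, SE 0.43, edgeR adjusted p = 0.0135), and Cpxm1, a carboxypeptidase-like secreted protein (-1.95, SE 0.38, edgeR adjusted p = 0.0111), also held. Ecm2, an extracellular matrix protein, had the narrowest spread, at 10.2, 7.42 and 10.3 CPM against 26.4, 25.6 and 24.6 CPM (-1.46, SE 0.26, edgeR adjusted p = 0.00608), and held in all 6 fits.

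Genes of antigen presentation were among those that fell. Interferon-stimulated and antigen genes had 0 of 28 higher and 3 lower, with 15 of 28 below every sham in all TAC libraries, as were 1264 of all 12626 genes, and a median of -0.91, and 0 called without replicate 3 (median -1.06). H2-Ab1, a chain of the MHC class II molecule, measured 15.6, 17.5 and 8.51 CPM after TAC and 128, 71.4 and 21.5 CPM in the shams (-2.42, SE 0.59, edgeR adjusted p = 0.0367). H2-Eb1, another class II chain (-1.94, edgeR adjusted p = 0.0497), was like it, and Psmb9, an immunoproteasome subunit, measured 6.09, 8.14 and 4.22 CPM against 29.4, 13.1 and 20.6 CPM (-1.78, SE 0.41, edgeR adjusted p = 0.0262). The class II calls held only without Sham + Sema 4W replicate 3 (up to 0.184 otherwise), and that of Psmb9 was lost without Sham + Sema 4W replicate 1 or 3 or TAC 8W + Sema 4W replicate 1 or 3 (up to 0.112). Retnla, a secreted marker of alternatively activated macrophages, measured 0.109, 0.206 and 0.455 CPM against 18.0, 9.90 and 0.556 CPM (-5.07, SE 1.14, edgeR adjusted p = 0.0241), lost without Sham + Sema 4W replicate 1 or TAC 8W + Sema 4W replicate 1 or 2 (up to 0.0902). Inmt, an amine methyltransferase, measured 2.61, 3.91 and 1.88 CPM against 19.0, 21.9 and 9.45 CPM (-2.60, SE 0.56, edgeR adjusted p = 0.0185), lost without Sham + Sema 4W replicate 1 (0.0646) or TAC 8W + Sema 4W replicate 3 (0.0592).

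Markers of the other cell types of the ventricle are given beside these genes, and their part in the result was not tested. The sums of fibroblast, endothelial and macrophage markers overlapped between TAC and sham libraries. Summed over 10 fibroblast markers the level was 786, 840 and 689 CPM after TAC and 2190, 1082 and 622 CPM in the shams, with Tcf21 and Gsn called lower and a median of -0.65. Macrophage markers (12) had a median of -1.23 with 0 called by edgeR, 2 lower by DESeq2 and 5 lower at an unadjusted p under 0.05. Endothelial markers summed to 870 to 1186 CPM after TAC and 844 to 1743 CPM in the shams, with 1 of 12 (Tie1) lower. Smooth muscle and pericyte markers had 1 of 10 (Kcnj8) lower, and erythroid markers summed to 190 to 656 CPM against 767 to 1025 CPM. Sham + Sema 4W replicate 1 held the highest sum for fibroblasts, endothelial cells, macrophages and lymphocytes, and cardiomyocyte markers ranged over 77816 to 90522 CPM with 0 of 14 called by edgeR or DESeq2 and 2 higher at an unadjusted p under 0.05. In bulk tissue, fewer cells of a type and less RNA per cell cannot be told apart. Of the adipocyte markers 4 of 8, and of the mesothelial markers 3 of 8, were at 0 in all 6 libraries. The calls of Tcf21, Gsn, Tie1 and Kcnj8 (log2 fold changes -1.45, -1.23, -1.03 and -1.14) were each lost when Sham + Sema 4W replicate 1, TAC 8W + Sema 4W replicate 1 or TAC 8W + Sema 4W replicate 3 was left out (adjusted p up to 0.173), and some of them without further libraries.

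The remaining named genes that fell were Alox12, a lipoxygenase (-2.06, edgeR adjusted p = 0.0221), Cbr2, a carbonyl reductase (-2.02, 0.0372), Ntf3, the neurotrophin NT-3 (-1.98, 0.0427), Tbc1d10c (-1.71, 0.0475), Htra3, a secreted protease (-1.30, 0.0426), and Gsta3, a glutathione transferase (-1.20, 0.0298). Each lost its call when replicate 1 of either group was left out (edgeR adjusted p up to 0.158), and all but Tbc1d10c also without TAC 8W + Sema 4W replicate 3. Rnf207, a ubiquitin ligase of the heart, was called only without replicate 3, at -2.62 (edgeR adjusted p = 0.0282). Folr2, the folate receptor of resident macrophages, was short of the test (edgeR adjusted p = 0.0532) and was called without replicate 3 (-3.18, edgeR adjusted p = 0.0332) or without Sham + Sema 4W replicate 3. Folr2 measured 1.96, 0.618 and 3.83 CPM after TAC and 20.4, 10.5 and 3.52 CPM in the shams.

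TAC with vehicle, compared with Sham 1 to 3, gave 196 higher and 84 lower genes (1.55% and 0.665% of 12626), and the pair of comparisons shares no library. The vehicle and Sema libraries belong to different sets, however. The mitochondrial genome gave 20.2 to 40.8% of counts in the 12 libraries titled with Sham 1 to 3 and 43.8 to 54.9% in the 9 of Sham 4 to 6 and both Sema 4W groups, and drug and set cannot be told apart between them. Called higher in both were 57 genes, 29.1% of the vehicle calls and 25.6% of the Sema calls, and called lower in both 13 (15.5% and 13.8%), with 0 called in opposite directions. The vehicle calls come from a fit in which Sham 1 to 3 and Sham 4 to 6 have a mean each, the Sema calls from one with a single mean for all 6 shams. In the fit with separate means, added after seeing the data, the Sema comparison had 431 higher and 183 lower genes (3.41% and 1.45%), of which 63 were also higher (32.1% of the vehicle calls and 14.6% of the Sema calls) and 21 also lower with vehicle (25% and 11.5%), with 1 called in opposite directions. Of the genes called with vehicle, 160 of 196 (81.6%) and 75 of 84 (89.3%) had the same sign under Sema, where 60.6% of all genes did. Their median log2 fold changes were 2.18 with vehicle and 0.99 under Sema (1.10 without replicate 3) for those higher, and -1.87 and -0.83 for those lower. Over all genes the fold changes had r = 0.292, and r = 0.394 without replicate 3, as a description across genes that are not independent.

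**Figure D4:**
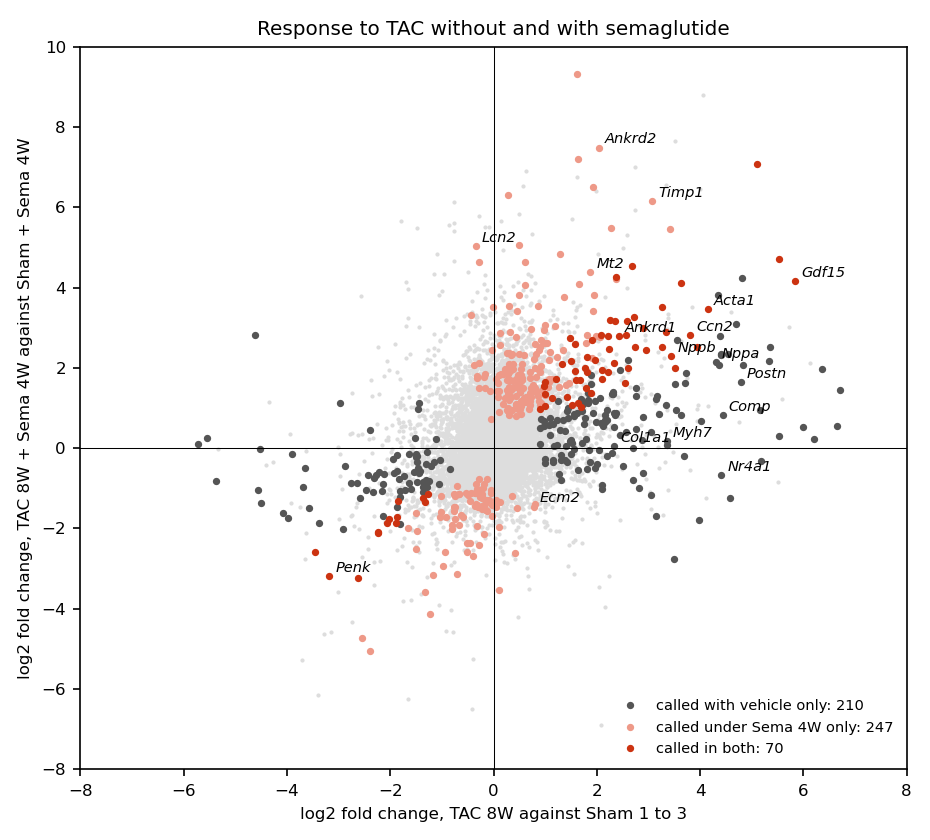
Log2 fold change of each gene after TAC with vehicle (x axis, TAC 8W against Sham 1 to 3) and under Sema (y axis, TAC 8W + Sema 4W against Sham + Sema 4W), coloured by where it was called: 210 genes with vehicle only, 247 under Sema only and 70 in both. Ankrd1 and Acta1 lie near the diagonal, Comp and Col1a1 nearer to the x axis, and 1 gene lies outside the axes.

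The lists divided by how near the counts and medians of both responses were. Natriuretic and fetal genes had 9 of 14 higher in each, with medians of 2.57 with vehicle and 2.37 under Sema. The median of their gene-wise differences, Sema minus vehicle, was -0.49, and equal counts do not show that the same genes were called. Single members had unlike values, but 0 of the 14 passed the test of the difference between the responses. Nppa measured 7492, 8039 and 2235 CPM in TAC 8W against 429, 163 and 307 CPM in Sham 1 to 3. It did not pass under Sema, which by itself does not show a different response. For Ankrd2, TAC 8W + Sema 4W replicates 1 and 2 (194 and 202 CPM) lay above every TAC 8W library and replicate 3 (1.88 CPM) below. Ankrd1 rose by 2.42 (SE 0.31) with vehicle, from 631, 481 and 721 CPM in Sham 1 to 3 to 3107, 4265 and 2456 CPM in TAC 8W, and the difference between the responses was 0.38 (SE 0.41, edgeR adjusted p = 0.736). For Acta1 that difference was -0.68 (SE 0.65, edgeR adjusted p = 0.702) and for Ccn2 -0.98 (SE 0.54, edgeR adjusted p = 0.512). Their intervals of about 2 SE include differences of more than 1 on the log2 scale, so equal responses are not shown.

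Matrix genes had more calls with vehicle. Collagens had 10 of 21 higher with vehicle (median 1.81) and 0 under Sema, matrix glycoproteins and proteoglycans 15 of 34 (median 1.95) and 2, activated fibroblast genes 10 of 20 (median 2.67) and 0, and immediate early genes 12 of 24 (median 2.04) and 2. With the separate sham means the Sema counts of these lists were 0, 3, 1 and 2. The vehicle counts leaned on TAC 8W replicate 1, the highest library in Postn (643, 43.8 and 102 CPM in TAC 8W replicates 1 to 3), Comp (315, 62.9 and 21.3 CPM), Col1a1 (515, 114 and 164 CPM) and Thbs1 (150, 13.4 and 48.8 CPM). Without it the vehicle comparison had 63 higher and 18 lower genes of 12713 (0.496% and 0.142%), with 0 collagens higher (median 0.97), 4 matrix glycoproteins and proteoglycans, 2 activated fibroblast genes and 7 immediate early genes. Without Sham replicate 1, 2 or 3 the vehicle calls numbered 75, 100 and 165, with 3, 5 and 7 collagens higher. Comp, a cartilage thrombospondin deposited in fibrotic matrix, measured 5.33, 5.77 and 2.01 CPM in TAC 8W + Sema 4W and rose by 4.43 with vehicle against 0.82 under Sema. The difference was -3.62 (SE 1.12, edgeR adjusted p = 0.289). Cilp, another fibrosis-linked matrix protein, differed by -2.81 (SE 0.76, edgeR adjusted p = 0.257), Postn by -3.15 (SE 1.12, edgeR adjusted p = 0.362), Thbs1, a thrombospondin that activates TGF-beta, by -2.30 (SE 1.10, edgeR adjusted p = 0.448) and Col1a1 by -2.28 (SE 0.60, edgeR adjusted p = 0.228). None of these differences passed the test, so a smaller matrix response under Sema was not shown gene by gene. Myh7 came nearest among the fetal genes: 3176, 2653 and 672 CPM in TAC 8W and 284, 204 and 148 CPM in Sham 1 to 3, a rise of 3.35 with vehicle against 0.17 under Sema, a difference of -3.18 (SE 0.60, edgeR adjusted p = 0.0521). Its level in the Sham + Sema 4W libraries (469 to 797 CPM) and in Sham 4 to 6 (557, 487 and 423 CPM) was above that in Sham 1 to 3 in every library.

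The difference between the responses passed the test in 6 genes, 3 higher and 3 lower under Sema (0.0238% each), with 1395 of 12626 genes at an unadjusted p under 0.05. Ecm2 had -2.23 (SE 0.34, edgeR adjusted p = 0.0224). It fell under Sema, and with vehicle it measured 41.9, 25.0 and 31.1 CPM against 19.5, 17.2 and 20.7 CPM, apart in every library but short of the test (0.77, adjusted p = 0.103). Nr4a1, a nuclear receptor of the immediate early class on which the study centred, differed by -5.07 (SE 0.92, edgeR adjusted p = 0.0407). It measured 58.4, 54.3 and 56.4 CPM in TAC 8W + Sema 4W and 224, 27.4 and 16.3 CPM in Sham + Sema 4W, so the even TAC libraries lay within a wide sham range (-0.67, SE 1.09, edgeR adjusted p = 0.737). With vehicle it rose from 4.65, 8.46 and 4.36 CPM to 103, 116 and 154 CPM (4.41, SE 0.71). Sham 4 to 6, which had no drug, measured 217, 81.7 and 239.8 CPM, above every TAC 8W + Sema 4W library. Creb5, the transcription factor that the study placed with Nr4a1, measured 2.18, 0.824 and 0.715 CPM after TAC under Sema and 0.627, 0.737 and 0 CPM in the shams (1.29, SE 0.73, edgeR adjusted p = 0.293).

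**Figure D5:**
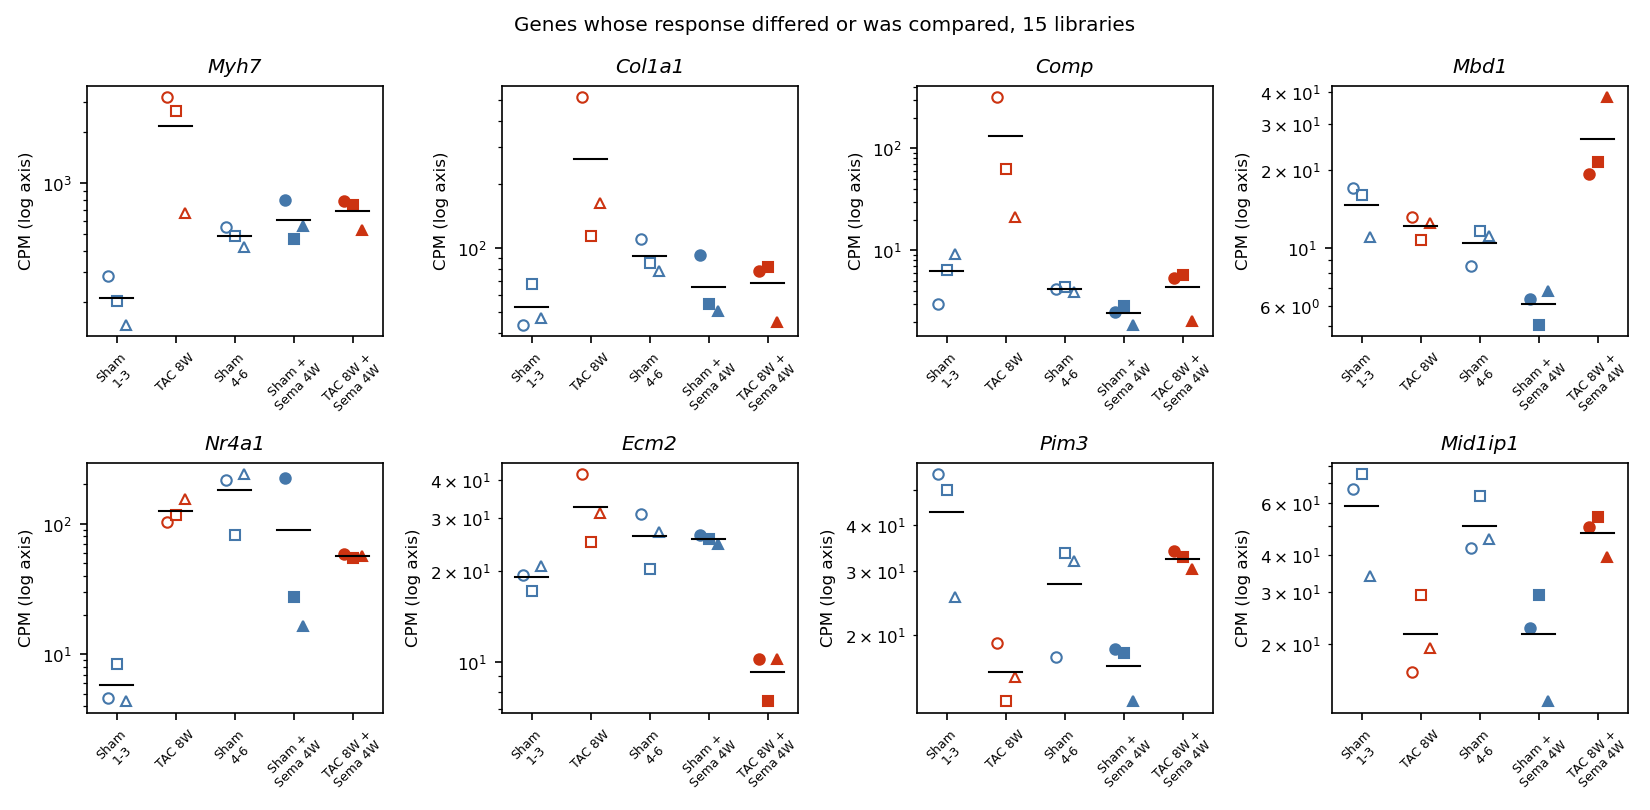
CPM (y axis, log scale) of 8 genes in the 15 libraries of Sham 1 to 3, TAC 8W, Sham 4 to 6 and the Sema 4W groups without and with TAC (x axis), with 1 point per library. Nr4a1 was at 4.36 to 8.46 CPM in Sham 1 to 3 and at 81.7 to 239.8 CPM in Sham 4 to 6, both without the drug.

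Pim3, Mid1ip1 and Mbd1 also passed the test of the difference, all higher under Sema. Pim3, a serine kinase, measured 33.8, 32.8 and 30.3 CPM against 18.4, 17.9 and 13.2 CPM under Sema and 19.0, 13.2 and 15.4 CPM against 55.2, 49.9 and 25.5 CPM with vehicle (2.42, SE 0.41, edgeR adjusted p = 0.0407). Mid1ip1, a regulator of fatty acid synthesis, went the same way, at 49.8, 53.9 and 39.3 CPM against 22.7, 29.4 and 12.8 CPM under Sema (difference 2.58, SE 0.45, edgeR adjusted p = 0.0407). In the comparison under Sema itself neither gene passed (edgeR adjusted p = 0.0974 for Pim3 and 0.0559 for Mid1ip1). Sham 4 to 6, without the drug, measured 17.5, 33.5 and 31.9 CPM for Pim3 and 42.4, 63.3 and 45.4 CPM for Mid1ip1. These overlapped the TAC 8W + Sema 4W libraries. For Mbd1 they measured 8.55, 11.6 and 11.1 CPM. Mbd1, a methyl-CpG binding protein, rose under Sema from 6.36, 5.05 and 6.86 CPM to 19.4, 21.4 and 38.1 CPM, called in all 6 fits (2.12, SE 0.33, edgeR adjusted p = 0.00231), and measured 13.2, 10.7 and 12.5 CPM in TAC 8W against 17.0, 16.0 and 11.02 CPM (difference 2.39, SE 0.42, edgeR adjusted p = 0.0407). The calls of the difference did not hold in every fit: without 1 library their number ranged from 0 to 19, with 0 without Sham + Sema 4W replicate 1, TAC 8W + Sema 4W replicate 1 or 2, TAC 8W replicate 1 or Sham replicate 1 or 2, 12 without TAC 8W replicate 2, 19 without TAC 8W + Sema 4W replicate 3, 2 without Sham + Sema 4W replicate 3 or TAC 8W replicate 3, and 3 without Sham + Sema 4W replicate 2.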

How the data were processed

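RNA was extracted from left ventricular tissue and sequenced as messenger RNA libraries. Per the submitters' processing notes and methods, the authors used cutadapt 1.11 for trimming, hisat2 for alignment (mm10) and featureCounts 1.6.0 for counting, and the deposited values are raw counts per gene, 1 column per library. The sources used here do not give the gene annotation or strand setting, so overlapping and antisense genes cannot be told apart. All 21 columns were matched to samples and 0 were left over. Of 22136 gene IDs 22118 were named from GENCODE M21, and 4828 genes had no count. Genes with enough counts (filterByExpr, minimum count 10, minimum total 15) numbered 12626. The counts were TMM-scaled and fitted with edgeR 4.0.16 (quasi-likelihood) in R 4.3.3, with 1 mean for each of 6 groups over 21 libraries, so that all groups share the estimate of spread. For the comparison with vehicle, Sham 1 to 3 and Sham 4 to 6 had a mean each. P-values are two-sided, Benjamini-Hochberg adjusted over all genes tested, with a threshold of 0.05, and CPM are TMM-scaled.

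Named genes were the 12 largest rises and falls among called genes whose libraries do not overlap and whose higher group averages 5 CPM or more, the 8 largest each way without TAC 8W + Sema 4W replicate 3, the 4 of each list with the smallest p, up to 6 each way of the difference, and 9 genes always given, the natriuretic peptides, Myh7, Myh6, Acta1, Col1a1, Col3a1, Creb5 and Nr4a1. Not every gene so selected is reported here. The comparison, the gene lists and the tests were chosen with earlier results of these data known. Alternatives were upper quartile and RLE scaling, limma 3.58.1 (voom, with and without quality weights), DESeq2 1.42.0, a robust prior, other count filters, fewer libraries in the fit, a replicate block, no mitochondrially encoded genes, leaving out each library, and removal of a trend with length and GC content (spline, 5 degrees of freedom). The study's own test was limma. Deviations of same-numbered libraries correlated at -0.080, -0.327 and -0.381, so the replicate numbers do not pair the libraries.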

Additional observations from a re-analysis of the deposited data

Results flagged for a closer look

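The response to TAC differed between Sema and vehicle by a test of the difference itself (edgeR, over 12626 genes) in 6 genes, 5 of which are given here as the log2 fold change under Sema minus that with vehicle. Lower under Sema were Ecm2 (-2.23, adjusted p = 0.0224) and Nr4a1 (-5.07, adjusted p = 0.0407). Higher under Sema were Mid1ip1 (2.58, adjusted p = 0.0407), Pim3 (2.42, adjusted p = 0.0407) and Mbd1 (2.39, adjusted p = 0.0407). All 6 compare libraries of different sets, and drug and set cannot be told apart. With all 6 shams as 1 group the difference had 0 calls (edgeR), with 491 genes higher and 419 lower at an unadjusted p under 0.05.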

How the results depend on the processing

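The comparison under Sema called 317 genes, the comparison with vehicle 280 and the difference 6. RLE and upper quartile scaling, a robust prior and the count filters kept these counts within 1.5 times. DESeq2 called 1053 under Sema, 480 with vehicle and 51 in the difference, and limma-voom 100 under Sema and 1 in the difference. With quality weights, which gave TAC 8W + Sema 4W replicate 3 a weight of 0.165 against 2.55 and 2.08 for its group mates, limma-voom called 955, 2661 and 389. With fewer libraries in the fit the comparison under Sema had 6 calls (the 6 libraries) and 43 (9 libraries), and 136 and 219 when TAC 8W + Sema 4W replicate 3 was left out as well. With the shams split into 2 means it had 614. The last 3 were chosen after seeing the data. With all 6 shams as 1 group the vehicle comparison had 548 calls and the difference 0. Removing the trend with length and GC content gave 286 calls under Sema, of which 219 were among the 317. It gave 10 for the difference and moved the median of all genes under Sema from 0.08 to -0.07. Same-numbered libraries did not deviate together. With the replicate block the comparison under Sema had 217 calls and the difference 3. Leaving out 1 library gave 73 (without Sham + Sema 4W replicate 1) to 307 calls under Sema, 75 to 412 with vehicle and 0 to 19 in the difference. Of the 79 named genes that were called, 26 held in all 6 fits without 1 of the compared libraries, 57 in the fit that lacks TAC 8W + Sema 4W replicate 3 and 29 in the one that lacks Sham + Sema 4W replicate 1, and 0 changed direction in any alternative. Genes near 0 that were not called did change sign. Col1a1 was at -0.023 with upper quartile scaling and -0.11 to 0.38 without 1 library, Col3a1 at 0.052 with quality weights, 0.16 (6 libraries) and 0.17 (9 libraries) in the fits that lack TAC 8W + Sema 4W replicate 3, and -0.20 to 0.32 without 1 library. Myh6 ranged over -0.37 to 0.064 and Nr4a1 over -1.15 to 1.36 without 1 library, and Nr4a1 was at 0.20 with limma-voom. The causes were not tested.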

Other observations

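Sham + Sema 4W replicate 1 was nearer to an untreated sham than to the other libraries of its own group. Its chi-square per gene was 12.7 with Sham replicate 4 (r = 0.984), the second lowest of 210 pairs, and 53.1 and 89.1 with Sham + Sema 4W replicates 2 and 3. Pairs of libraries within a group, 30 in all, otherwise ranged from 13.5 to 323 beside the 7.11 of TAC 8W + Sema 4W replicates 1 and 2, and the median of all pairs was 188. All untreated shams counted as a single group there, although they belong to different sets. The 323 was such a pair across sets, Sham replicates 2 and 4. Within a set the highest value was 162, for TAC 8W + Sema 4W replicates 1 and 3. Sham + Sema 4W replicate 1 is also the library without which most calls of the comparison were lost.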
